A study of Homo sapiens with 8 samples.

Results

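Capped nascent RNA start sites of senescent IMR90 cells, a human lung fibroblast line, were described in 5 genes that encode kinases or proteins that place kinases in the cell: STK32B, PALM2AKAP2, MAPKAP1, ABL1 and ABL2. The sites came from 2 deposited lists, named for start sites of senescent and not proliferating cells (849 sites, called senescent-only) and of proliferating and not senescent cells (400 sites, called proliferating-only). The genes were chosen from these lists with their values known, and a site was counted for a gene where its midpoint lay in the gene's GENCODE 44 span or up to 1 kb upstream. This gave 22 sites out of 1249, all of them in the senescent-only list and none in the proliferating-only list (0). The 22 were 9 in STK32B, 9 in PALM2AKAP2, 2 in MAPKAP1, 1 in ABL1 and 1 in ABL2.

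PRO-cap, a run-on assay that sequences the capped 5′ ends of RNA still held by polymerase, was run on 3 proliferating libraries (population doubling 23, and 26 for replicates A and B) and 3 senescent libraries (population doubling 76, and 67 for replicates A and B). The labels also list 1 PRO-seq library of each state, at population doubling 20 and 76, which was not analysed here. All were IMR90 cells grown at 3% oxygen, with no agent or allele named in the labels, and senescence was reached by passaging to exhaustion, so all values come from 1 cell line. The lists hold no value per library, so none of the values given has an error over libraries, and no test between the states was made. They hold no expression levels either, so fibroblast markers could not be checked.

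The 5 genes act at different points of kinase signalling. STK32B encodes a little-studied serine/threonine kinase of the AGC group. PALM2AKAP2 is a compound locus that encodes paralemmin 2, a membrane-associated protein, and AKAP2, an A-kinase anchoring protein that tethers protein kinase A to the cytoskeleton, and some of its transcripts join both parts. MAPKAP1, also called SIN1, encodes a subunit of mTOR complex 2, the complex that phosphorylates AKT and other AGC kinases. ABL1 and ABL2 encode paralogous non-receptor tyrosine kinases that bind actin and act in adhesion and cell shape, and ABL1 also acts in the response to DNA damage.

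Start sites often carry a pyrimidine followed by a purine at the first transcribed base, most often C followed by A. The sites below are printed to show the letters at their centres and the AP-1 motif, bound by FOS and JUN family factors, which falls near some of them. CA is more common in this selection than among all 22 sites, of which 11 had it. Only C followed by A was scored. Each is given in the direction of its gene, from the GRCh37 reference, which has the coordinates of hg19. Capitals mark CA at the centre on the gene's strand, or TG where CA is on the other strand, and each AP-1 match (TGACTCA or TGAGTCA). The set holds the STK32B and MAPKAP1 sites with the most reads, an STK32B site and a PALM2AKAP2 site with an AP-1 match close to the centre, the PALM2AKAP2 site with the most reads, and the single sites of ABL1 and ABL2.
STK32B site 1, chr4:5367437-5367586, plus strand: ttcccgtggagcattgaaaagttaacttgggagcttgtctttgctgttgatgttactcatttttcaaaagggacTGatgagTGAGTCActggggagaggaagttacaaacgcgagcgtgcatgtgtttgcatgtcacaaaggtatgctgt
STK32B site 2, chr4:5367602-5367751, plus strand: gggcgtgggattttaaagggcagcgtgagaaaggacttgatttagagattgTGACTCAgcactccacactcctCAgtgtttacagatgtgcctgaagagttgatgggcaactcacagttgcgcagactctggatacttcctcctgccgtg
STK32B site 5, chr4:5372258-5372407, plus strand: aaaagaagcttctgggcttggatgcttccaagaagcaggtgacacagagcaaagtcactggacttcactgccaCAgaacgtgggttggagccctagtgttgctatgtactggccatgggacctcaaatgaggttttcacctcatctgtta
PALM2AKAP2 site 2, chr9:112663661-112663810, plus strand: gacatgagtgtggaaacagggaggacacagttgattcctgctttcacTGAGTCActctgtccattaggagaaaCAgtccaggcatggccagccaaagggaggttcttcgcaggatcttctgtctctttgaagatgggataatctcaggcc
PALM2AKAP2 site 9, chr9:112867428-112867577, plus strand: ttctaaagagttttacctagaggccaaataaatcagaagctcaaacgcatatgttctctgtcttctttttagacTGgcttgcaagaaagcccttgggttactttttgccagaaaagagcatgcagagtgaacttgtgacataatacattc
MAPKAP1 site 1, chr9:128223125-128223274, minus strand: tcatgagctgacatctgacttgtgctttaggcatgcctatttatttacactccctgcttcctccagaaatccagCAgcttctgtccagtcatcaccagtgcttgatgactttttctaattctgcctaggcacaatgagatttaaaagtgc
ABL1 site 1, chr9:133736042-133736191, plus strand: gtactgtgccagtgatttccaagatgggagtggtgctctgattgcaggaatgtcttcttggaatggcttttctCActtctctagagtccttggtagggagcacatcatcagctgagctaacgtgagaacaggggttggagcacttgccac
ABL2 site 1, chr1:179124220-179124369, minus strand: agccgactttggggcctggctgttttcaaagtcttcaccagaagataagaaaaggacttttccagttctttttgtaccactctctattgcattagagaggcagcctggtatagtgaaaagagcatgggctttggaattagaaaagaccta
The first line of STK32B reads TG at the centre, the next 2 read CA, and both of the first 2 hold an AP-1 match close by. PALM2AKAP2 site 2 has CA and an AP-1 match, and site 9 has TG. MAPKAP1 site 1 and the ABL1 site have CA on their gene's strand. The ABL2 site has CA on neither strand, though its centre reads T followed by A, also a pyrimidine and a purine.

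The genes were set against the background first, as a description, since they were chosen from these counts. Of 20163 protein-coding genes, 411 held a senescent-only site (2.04%) and 220 held a proliferating-only site (1.09%). Genes with sites were long. Their median span was 170 kb, against 27.2 kb over all protein-coding genes, and of genes of 100 kb or more 7.77% held a senescent-only site. All 5 genes were of that length, from 130 kb for ABL2 to 674 kb for PALM2AKAP2. Only 8 protein-coding genes (0.0397%) held 9 or more senescent-only sites, and STK32B and PALM2AKAP2 were among them. With 2.00 and 1.33 sites per 100 kb they lay above the median of 0.924 over the 411 genes, whereas MAPKAP1 (0.741), ABL2 (0.767) and ABL1 (0.573) lay below it. A single site, as in ABL1 and ABL2, was the most common case, found in 228 genes.

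Each deposited fold is the authors' ratio of senescent over proliferating signal, and each was matched by a whole number of reads in either state, which is used below. STK32B had the most reads. Its 9 sites lay on chromosome 4 between 5367437 and 5385628, within a gene that spans 5053207 to 5502721 on the plus strand. Numbered from the 5′ end of the gene, they held 53, 148, 21, 39, 213, 136, 106, 52 and 34 reads in senescent cells. In proliferating cells they held 0 reads at 7 sites, 1 at site 6 and 2 at site 7. The lowest senescent count was 21. Every site of the list had a fold of 10.2 or more, so senescent reads exceed proliferating reads at each listed site by selection. Site 5 had the highest fold, 6990, which ranked 5 of 849, and site 2 ranked 13 with a fold of 4857. With a count of 0 set at a floor of 3 reads, the senescent level was 59.2-fold higher at site 5 and 41.1-fold higher at site 2. The upper 95% limit for a count of 0 is 3.69 reads, so these values are not strict lower bounds. At site 7, where both states had reads, the ratio of levels was 44.2 (95% interval 11.9 to 369). All intervals on reads cover counting error only, because reads without molecular identifiers are not independent molecules.

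The 9 STK32B sites shared a single intron, the fourth of the longest coding transcript, which is 66.8 kb long. They occupied 18.2 kb of it and fell into 2 groups when joined within 10 kb, one of 7 sites over 6.10 kb and one of 2 sites over 202 bases. The larger group held 3 dense places of its own: sites 1 to 4, site 5 alone, and sites 6 and 7, whose centres are 168 bases apart. Sites 1 and 2 have centres 165 bases apart. Sites 8 and 9 overlapped by 98 bases, so that their reads may be counted at both, and STK32B held 768 senescent reads (95% interval 715 to 824) against 3 proliferating reads when the richer of the 2 was counted alone. No site touched an annotated exon of the gene, and the nearest annotated start of an STK32B transcript lay 48.5 to 66.5 kb farther downstream. Counted from the 5′ end, the sites lay 314 to 332 kb into STK32B, at 69.9% to 73.9% of its length.

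PALM2AKAP2 held as many sites as STK32B, with fewer senescent and more proliferating reads. From the 5′ end its sites held 8, 75, 24, 76, 39, 51, 15, 19 and 98 reads in senescent cells. The same sites held 0, 2, 0, 4, 2, 1, 1, 1 and 7 reads in proliferating cells. The lowest senescent count of the gene was 8, at site 1, and its highest proliferating count was 7, at site 9. Proliferating reads were thus present at 7 of the 9 sites, where STK32B had them at 2 of 9. Over sites that do not overlap, 397 senescent reads (95% interval 359 to 438) stood against 18 proliferating reads (10.7 to 28.4), a ratio of levels of 18.4 (11.5 to 31.3). The same ratio was 213 (72.7 to 1037) for STK32B, where it rests on 3 proliferating reads. Both genes were picked with these values in view, and the intervals cover counting error only. The 2 ratios are therefore described and were not tested against each other. Folds in PALM2AKAP2 ran from 11.6 to 789 with a median of 16.1. They ran from 43.6 to 6990 with a median of 1281 in STK32B. Where no proliferating read was counted, the fold is set by the senescent reads and the pseudocount of 1. Such sites were 7 of 9 in STK32B and 2 of 9 in PALM2AKAP2, so the 2 medians are not like measures. Site 9, with the most senescent reads in PALM2AKAP2, had its lowest fold, 11.6, next to a lowest value of 10.2 in the list.

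**Figure D1:**
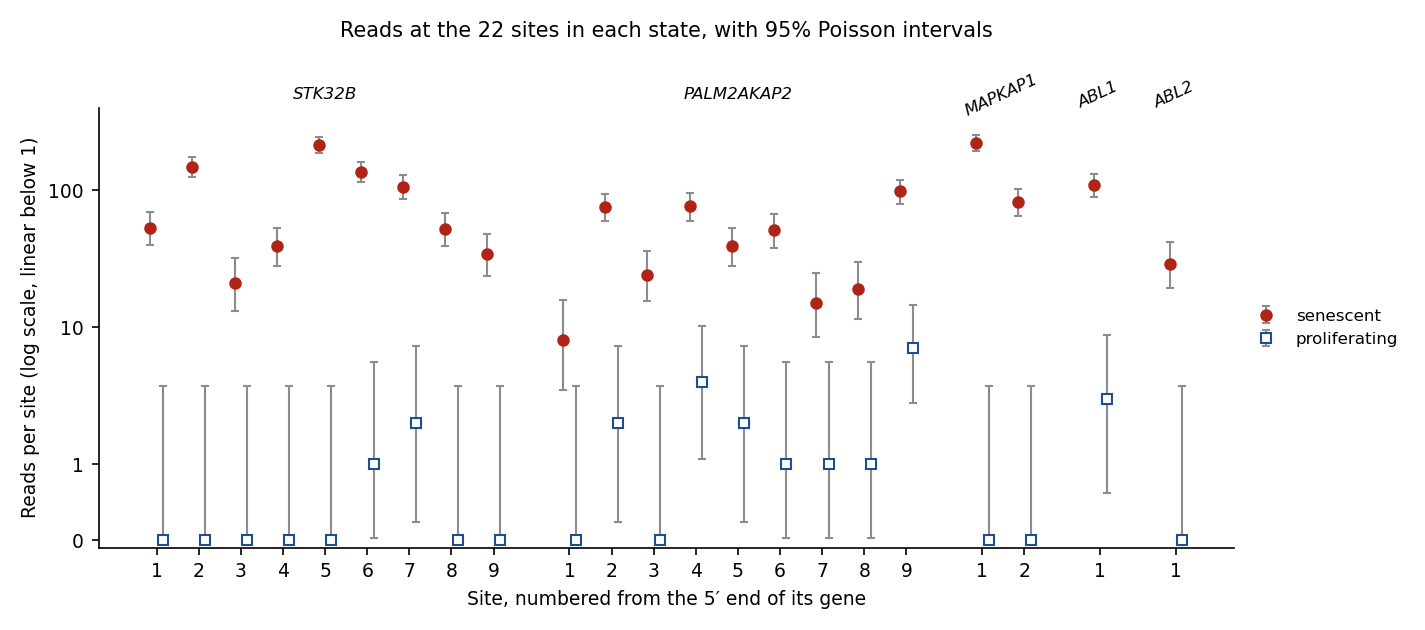
Reads at each of the 22 sites (x axis, numbered from the 5′ end of the gene) in senescent (filled circles) and proliferating cells (open squares), on an axis that is logarithmic above 1 read and linear below, with exact 95% Poisson intervals. STK32B, MAPKAP1 and ABL2 have 0 proliferating reads at all but 2 sites, and 7 of 9 PALM2AKAP2 sites have between 1 and 7.

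The PALM2AKAP2 sites were also spread wider. They covered 204 kb of chromosome 9, between 112663517 and 112867577, in a gene that spans 112260605 to 112934792 on the plus strand, and formed 5 groups when joined within 10 kb. Sites 1 and 2 overlap by 6 bases and lie in intron 3 of the longest coding transcript, within the part of the locus that the paralemmin 2 transcripts cover. There 8 of the 17 annotated transcripts span them. Sites 3 to 5 lie 114 kb farther on and site 6 follows after 13.1 kb. Only 3 of 17 transcripts span these 4 sites. These transcripts start with the paralemmin 2 part and run on into the AKAP2 part. The nearest annotated start, of AKAP2 transcripts at 112810878, lies 18.9 to 32.8 kb downstream of the 4 sites. Sites 7, 8 and 9 lie past that start, in intron 7, which is 120 kb long. Sites 3 and 4 stand on either side of one short exon. Site 4 holds 53 bases of it, all coding, and its midpoint is 23 bases inside intron 7. It was the only one of the 22 sites that touched an exon of its gene.

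MAPKAP1 had the single highest fold of the 5 genes. Its 2 sites, at chr9:128223125-128223274 and chr9:128222798-128222947, held 222 (95% interval 194 to 253) and 82 (65.2 to 102) senescent reads and no proliferating read (0 at both). The folds were 7285, which ranked 4 of 849, and 2692, which ranked 34. Against the floor of 3 reads the senescent level was 61.7-fold and 22.8-fold higher. The gene lies on the minus strand from 128199672 to 128469513, and both sites lie in intron 8 of its longest coding transcript, 246 to 247 kb from the 5′ end and at 91.3% and 91.4% of its length. Their centres are 327 bases apart, and the nearest annotated start of MAPKAP1 lies 9.82 and 9.49 kb downstream. Both sites rank near the top of the list. Nothing in the other state was counted there, so their folds are set by the senescent reads and the pseudocount of 1.

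The ABL paralogs held 1 site each, with unlike values. In ABL1 the site at chr9:133736042-133736191 held 108 senescent reads (95% interval 88.6 to 130) and 3 proliferating reads, with a fold of 29.8 and a ratio of levels of 30.0 (10.00 to 148). In ABL2 the site at chr1:179124220-179124369 held 29 senescent reads (19.4 to 41.6) and 0 proliferating reads, and its fold of 953 exceeded that of ABL1. The order by fold is thus the reverse of the order by senescent reads. Where the other state has no read, the fold is set by the senescent reads and the pseudocount of 1. The ratio of ABL2 can be given only against the floor of 3 reads, at 8.06. This value lies under the ratio of ABL1, so the data do not order the genes by ratio.

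The paralogs also differed in the place of the site. The ABL1 site lies in intron 3 of the longest coding transcript, 148 kb from the 5′ end, at 84.6% of a gene that spans 133588430 to 133763062 on the plus strand. It lies 25.5 kb past the start of the shorter coding transcript at 133710641, and 2 of 3 annotated transcripts span it. The ABL2 site lies in intron 1, which is 95.9 kb long, 74.5 kb from the 5′ end, at 57.2% of a gene that spans 179068465 to 179198819 on the minus strand. It lies 12.1 kb upstream of the start of the shorter transcripts at 179112211. The ABL1 site is therefore downstream and the ABL2 site upstream of the annotated start of its gene that lies nearest to it.

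**Figure D2:**
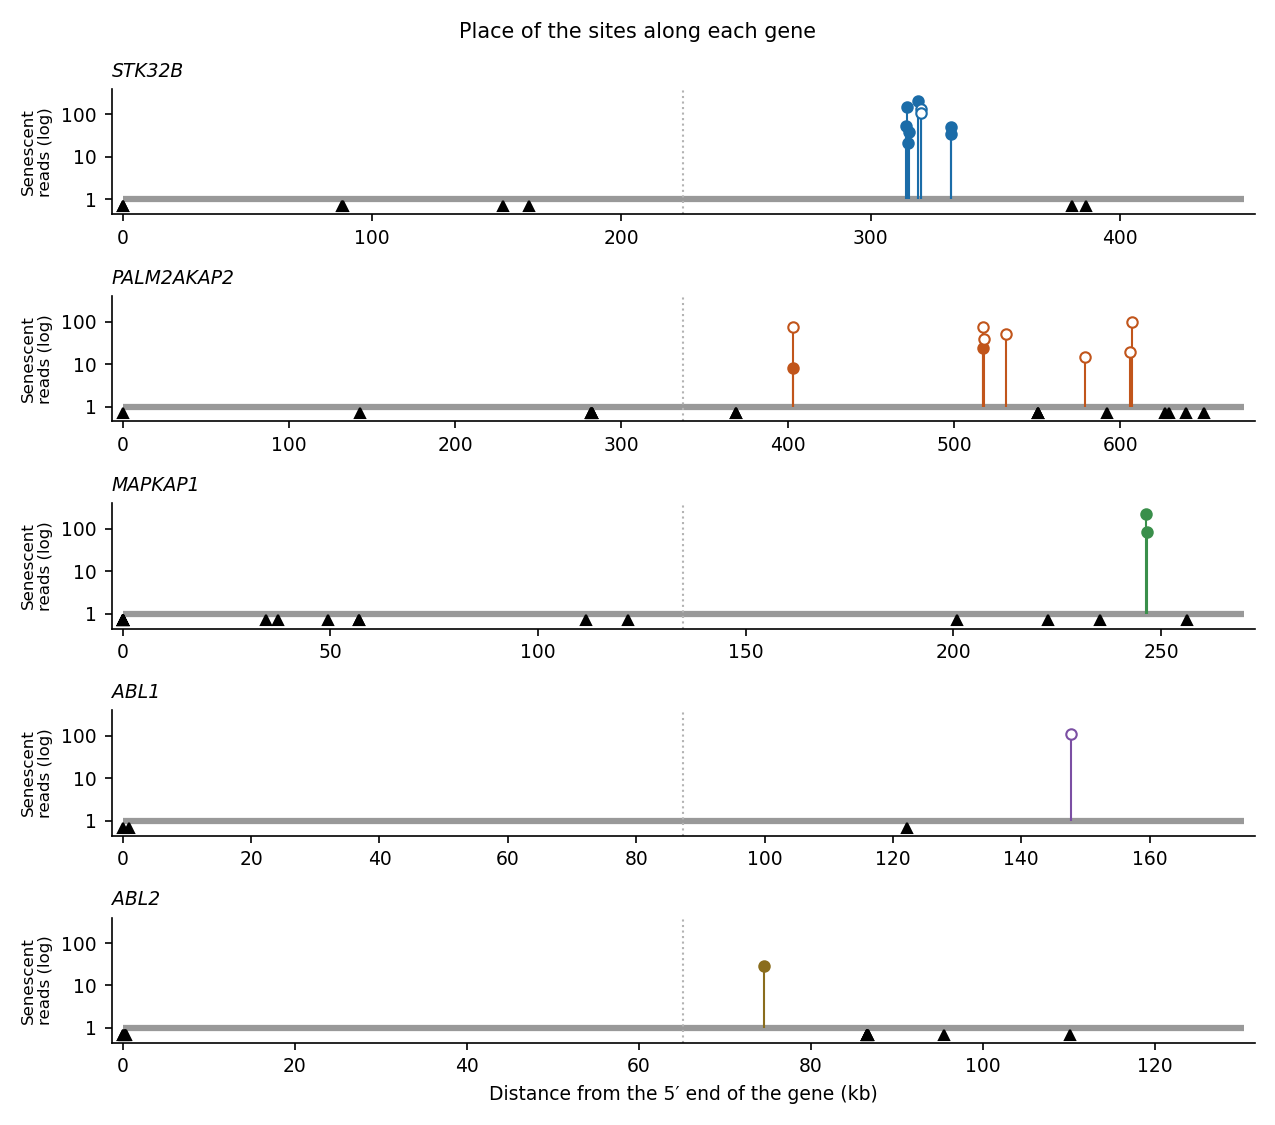
Place of the sites along each gene, drawn from its 5′ end in kb (x axis), with senescent reads on a logarithmic y axis, annotated transcript starts as triangles and the gene midpoint as a dotted line. Filled circles have no proliferating read and open circles have at least 1. All 22 sites lie past the midpoint. Joined within 10 kb, they form 2 groups over 18.2 kb in STK32B and 5 groups over 204 kb in PALM2AKAP2.

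The shared features of the 22 sites were then read beside the whole list. All 22 midpoints lay in introns, where 82.9% of senescent-only sites did, and none lay within 1 kb of an annotated start of any gene (0 of 22, 95% Wilson interval up to 14.9%, against 8.72% of the list). All 22 lay past the midpoint of their gene, as did 92.3% of the 743 senescent-only sites with 1 protein-coding host. PALM2AKAP2 sites 1 and 2 fell before the midpoint when the longest coding transcript was taken as the gene, which leaves 90.9%. No other annotated gene covered the midpoint of any of the 22 sites. With no read in proliferating cells stood 12 of 22 (54.5%, 34.7 to 73.1), beside 55.4% in the list, a share near that of the list. Within them the share was 7 of 9 in STK32B and 2 of 9 in PALM2AKAP2. The median of senescent reads was 52.5 for the 22 sites and 32 for the list.

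**Figure D3:**
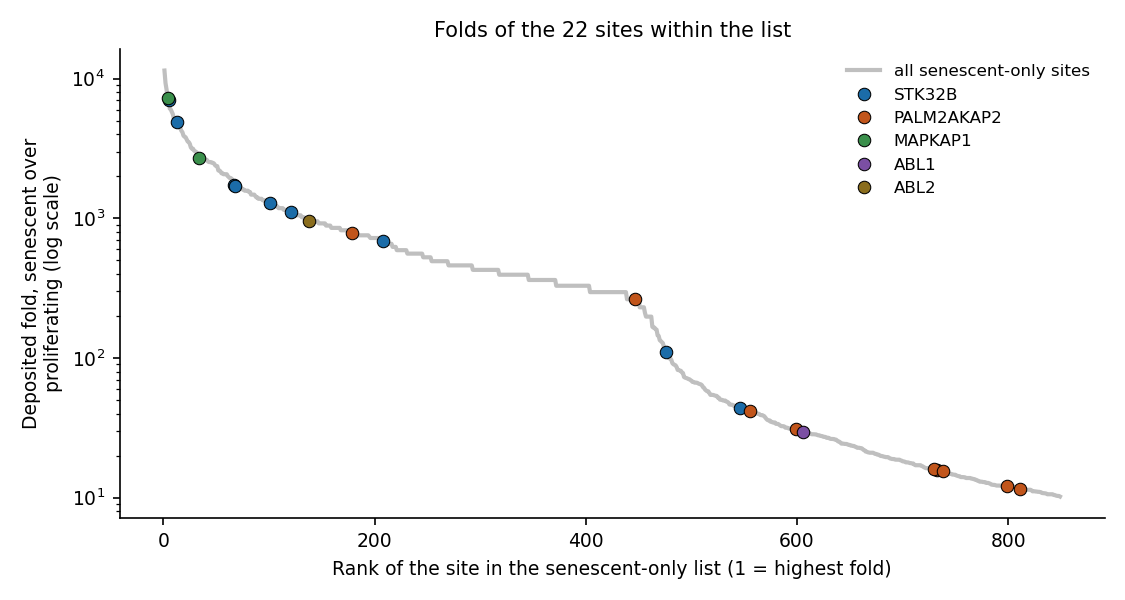
Deposited fold (y axis, logarithmic) against rank (x axis) for the 849 senescent-only sites (grey line), with the 22 sites coloured by gene. MAPKAP1 and most STK32B sites lie among the highest ranks, and 7 of 9 PALM2AKAP2 sites lie past rank 500.

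The lists give every site a plus strand, so the direction of transcription was sought in the letters at the site centres, a step added once the lists had been seen. Base 75 of each site was taken as its centre. CA with A as the centre base, on either strand, was found at 50.5% of senescent-only and 48.8% of proliferating-only sites. At the 120 other offsets within 60 bases the share was 10.6% to 20.1% (median 16.2%) in the senescent-only list and 8% to 19% (median 14.5%) in the proliferating-only list. In both lists the share at the centre thus lay above that at each of the other 120 offsets. Among the 22 sites, 11 had CA at the centre (50%, 30.7 to 69.3), which is the share of the list. It was on the strand of the gene at 7 (31.8%, 16.4 to 52.7), beside 21.7% of senescent-only sites. On the opposite strand it was found at 4 (18.2%, 7.31 to 38.5), beside 24.1%. Both intervals hold the share of that list, and the split was not tested.

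By gene, STK32B had CA on its own strand at sites 2, 5, 7 and 9 and on the opposite strand at sites 1 and 8, with neither at 3 sites. Sites 1 and 2, whose centres are 165 bases apart, thus had outward-facing letters, the opposite strand first and the gene's strand second. Sites 8 and 9 showed the same order over 52 bases. PALM2AKAP2 had CA on its own strand at site 2, on the opposite strand at sites 5 and 9, and at neither strand at 6 sites. A match describes the letters only, and no direction was measured. No TATA box (TATAAA or TATATA) lay 20 to 36 bases before the centre on the strand of the CA in any of the 11 (0), where 8 of 429 such senescent-only sites had one.

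**Figure D4:**
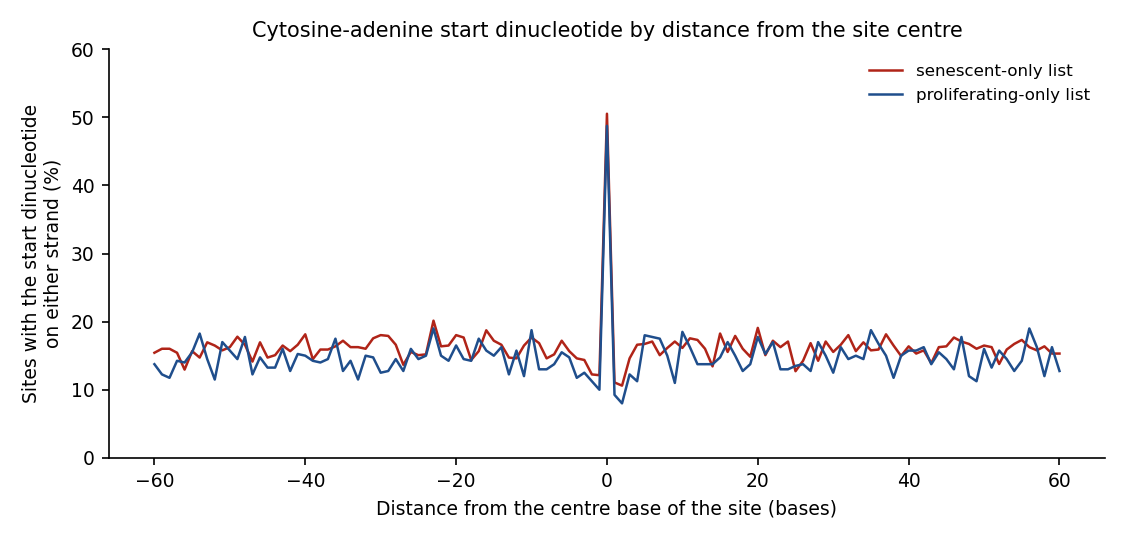
Share of sites in percent (y axis) with the cytosine-adenine start dinucleotide on either strand, by distance in bases from the centre base of the site (x axis), for the senescent-only and the proliferating-only list. Both lines peak at the centre, at 50.5% and 48.8%, over a level of about 16.2% and 14.5% elsewhere.

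An AP-1 match lay in the 200 bases centred on the site for 7 of the 22 sites (31.8%, 16.4 to 52.7), beside 18.4% of the senescent-only list and 10% of the proliferating-only list. The interval holds the share of the senescent-only list. It treats the 22 sites as independent, though they form 13 regions when joined within 500 bases. A difference from the list was not tested. The matches were in 2 genes. The windows of STK32B sites 1 to 4 had 1 each, at 9, -21, 79 and -42 bases from the centre along the gene, and its other 5 had none. The match at 79 lies past the end of site 3, which is 150 bases wide. Within the 150 bases of the sites the share was 27.3%. PALM2AKAP2 sites 2, 4 and 7 had 1 each, at -25, -71 and 67 bases. The match of site 4 lies in the coding exon that this site touches. In STK32B the matches thus belonged to the 4 sites of the block that starts the cluster, and the site with the most reads had none. MAPKAP1, ABL1 and ABL2 had no match in these windows (0).

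Each other motif was found at 3 of the 22 sites or fewer, and differences from the list were not tested. A TATA match at any place of the window was found at STK32B site 9 and MAPKAP1 site 2, which is 9.09% of the 22 and 14.7% of the list. The TEAD motif (GGAATG) was found at 3 sites (13.6%, list 17.8%), with 2 matches in the ABL1 site, and the RUNX motif (TGTGGT) at 3 (13.6%, list 19.0%). A GC box (GGGCGG) was found at PALM2AKAP2 site 8 alone (4.55%, list 3.30%), and the cyclic AMP response element TGACGTCA at none (0, list 0.707%). Every motif was searched on both strands. GC content ran from 37.5% to 54.5% with a median of 45.8%, next to 45.5% in the list, and the median observed-to-expected CpG ratio was 0.211, next to 0.186.

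The genes nearest to STK32B and PALM2AKAP2 by number of senescent-only sites, and then by median fold, were RAD51B and MGAT5, with 9 sites each. RAD51B, which acts in homologous recombination, came closer to STK32B, with a median fold of 460 and 7 sites without a proliferating read, but its sites formed 6 groups and it also held 4 proliferating-only sites. MGAT5, a glycosyltransferase of N-glycans, came closer to PALM2AKAP2, with a median fold of 42.3 and 3 sites without a proliferating read, but its sites formed 1 group within 10 kb. Site number and fold thus went with either dense or wide spacing in these 4 genes.

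Related genes were counted from 7 lists of 111 genes, all of them found in the annotation. A senescent-only site was held by 5 (4.50%), beside 2.04% of all protein-coding genes, and a proliferating-only site by 3 (2.70%), beside 1.09%. All 5 were 100 kb or longer, which makes 5 of the 44 listed genes of that length (11.4%), beside 7.77% of all such genes. Of the 10 genes of the mTOR complexes, RPTOR, the scaffold subunit that defines mTOR complex 1, held 1 site with 99 senescent and 6 proliferating reads. RICTOR and the other members that share complex 2 with MAPKAP1 held none (0).

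Of 17 AGC kinases, which include the substrates of mTOR complex 2, PRKCE and PRKCH held sites. PRKCE, a protein kinase C of the calcium-independent class, held 6 senescent-only sites, with 157, 96, 35, 17, 13 and 468 senescent reads and 1, 0, 2, 0, 0 and 4 proliferating reads from the 5′ end. These sites lay in introns, at 77.1% to 98.1% of its length, late in the gene like those of MAPKAP1. Most of the list had such a place, with 82.9% of senescent-only sites in introns. Of those with 1 protein-coding host, 92.3% lay past the gene midpoint. PRKCH, of the same class, held 3 senescent-only sites, of which the first 2 had 24 and 11 reads, 0 in proliferating cells, and lay within 1 kb of an annotated transcript start.

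STK32A and STK32C, the paralogs of STK32B, held no site (0), and neither did the 7 subunits of protein kinase A, which AKAP proteins bind. Among 20 genes of the A-kinase anchoring and paralemmin families, AKAP7 and AKAP9 held sites of the other state, proliferating-only, with 6 and 15 reads at the 2 sites of AKAP7, 11 at that of AKAP9 and 0 senescent reads. No gene of this list held a senescent-only site (0). Over all protein-coding genes 2.04% held a senescent-only site and 1.09% a proliferating-only site. Lists this short can hold none at such shares, so the zeros given here do not set these families apart. Among 25 partners and substrates of the ABL kinases, ROBO1, a guidance receptor, held 1 proliferating-only site with 3 reads, and none held a senescent-only site (0). Of the 30 other non-receptor tyrosine kinases, JAK1, which signals from cytokine receptors, held 3 senescent-only sites with 36, 148 and 165 senescent and 1, 3 and 1 proliferating reads from its 5′ end. PTK2B, a kinase of the focal adhesion kinase family, held 1 with 15 and 1 reads.

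No listed site stood close to the 5 genes outside their spans. The nearest senescent-only site lay 247 kb from STK32B, where CRMP1 and EVC overlap, and 1341 kb or more from the other 4 genes. The nearest proliferating-only site lay 580 kb from PALM2AKAP2, in MUSK, and 1612 kb or more from the others. The counts per gene were therefore the same with no upstream margin and with 5 kb.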

How the data were processed

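Start sites of 6 PRO-cap libraries, 3 per state, were read from 4 deposited lists, of which 2 are distinct; each is a BED list of 150-base sites with 1 value per site. That value is a ratio, a fold of one state over the other, computed by the authors before they deposited it, and the labels of all 3 libraries of a state name the same list. The site calling, the libraries that entered it and any pooling of replicates are not given in the sources used here. The tools were cutadapt 2.10, BWA 0.7.10, bedtools 2.27.1-65, SAMtools 1.1 and HOMER, and hg19 is among the builds, per the submitters' processing notes, which state no roles.

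From the folds, whole reads per state were decoded with a pseudocount of 1: all 849 and 400 folds were matched, with no second match among up to 200 reads of the other state, at steps of 32.8 (senescent) and 39.4 (proliferating) per read and a tolerance of 1e-06 of a read. The decoding was tested on simulated data with known reads. Level ratios compare reads times step, so they rest on the authors' scaling; no library total was at hand. Intervals on reads are exact Poisson, on ratios exact binomial and on shares Wilson, all 95%, and a count of 0 was set at a floor of 3 reads. Genes, introns and transcript starts came from GENCODE 44 lifted to GRCh37, and motifs from the 200 bases centred on each site. Python 3.11.15, SciPy 1.17.1 and pysam 0.24.0 were used.

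Members and gene lists were chosen with earlier results of these data known, so no test was made on them. Named are the 5 members, each gene of the 7 lists with a site, and, for members with 3 or more sites, the 2 genes nearest by number of sites and then by median log2 fold.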

Additional observations from a re-analysis of the deposited data

How the results depend on the processing

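No paired analysis was possible because each site has 1 fold and no value for any library, which also means that leaving out a replicate could not be tried. The count of 22 sites became 13 regions when sites within 500 bases were joined and 10 when those within 10 kb were, 12 when only sites without a proliferating read were kept, and 11 among the 50% of sites with the highest fold; each falls by construction. STK32B then held 4, 2, 7 and 7, and PALM2AKAP2 6, 5, 2 and 1. The ABL1 site was left in neither of the last 2 (0). The share of sites without a proliferating read was 54.5% with all genes, 76.9% without PALM2AKAP2 and 38.5% without STK32B. The median fold, 477, was 30.9 without STK32B, 1281 without PALM2AKAP2, 187 without MAPKAP1, 264 without ABL2 and 690 without ABL1, since it falls between the 2 large genes. The share with an AP-1 match ran from 23.1% without STK32B to 40.9% in windows of 300 bases. Counting both of 2 overlapping sites, an alternative added after the data were examined, gave 802 in place of 768 senescent reads in STK32B. Over all results, 53 of the values under another setting stayed within 1.5 times the reported count or median, or within the 95% Wilson interval of the reported share, and 18 did not. Depth limits the ratios: where the other state has 0 to 3 reads, only a value against the floor or a wide interval can be given.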
